A study of Mus musculus with 4 samples.

Results

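Macrophage polarization genes are genes whose transcripts are read as signs of how a macrophage has been activated. The 7 described here are Arg1, Nos2, Acod1, Chil3, Mrc1, Mgl2 and Il4ra, found by symbol among the 31053 genes of a single-cell count matrix. The choice is by name and sets no threshold on their counts. The cells came from the livers of male mice, aged 8 weeks per the labels, that carried MC38 tumours, a mouse colon carcinoma line, in a model where surgical stress promotes colorectal liver metastasis. The tissue was collected 3 weeks after the tumour cells were injected, and immune cells were enriched on CD45 beads once hepatocytes had been spun out. The sedentary group has 2 libraries, Sed 1 and Sed 2, and the group exercised before surgery has 2, Ex 1 and Ex 2. All 4 libraries carry tumours, so no tumour-free liver enters any comparison, and the mouse strain and the number of animals behind each library are not given in the sources used here. The p-values therefore measure the spread between these libraries only, which may be technical.

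Macrophages respond to cytokines and microbial products by changing how they use arginine, which cytokine receptors and lectins they carry, and what they secrete. Interferon and microbial signals induce Nos2, which makes nitric oxide from arginine, and Acod1, which makes itaconate from a citric acid cycle intermediate. Interleukin 4 and interleukin 13 act through Il4ra and the factor Stat6 to induce Arg1, which splits arginine into ornithine and urea, the secreted lectin Chil3, and the surface lectins Mrc1 and Mgl2. Several of these genes have other uses: hepatocytes express Arg1 in the urea cycle, liver sinusoidal endothelium expresses Mrc1, and neutrophils and their precursors express Chil3.

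The matrix held 7992, 8224, 7012 and 5297 barcodes for Sed 1, Sed 2, Ex 1 and Ex 2, with 23918964 to 41027638 unique molecular identifiers (UMIs) per library. After filtering, 4097 to 7141 cells per library remained, at a median of 3284 to 3749 UMIs. Of the 28442 distinct barcode sequences, 83 occurred in more than 1 library. The makeup of the libraries differed: myeloid cells were 60.1% and 59.6% of cells in Sed 1 and Sed 2 but 47.3% and 29.8% in Ex 1 and Ex 2, and endothelial cells, which the beads should leave behind, were 1.40% in Sed 1 and 15.7% in Ex 2. Cells were clustered without the 7 genes and named by markers, so each class below stands for cells like that type. Within the macrophage-like class, a cluster led by Spp1 (221, 178, 736 and 307 cells) was the larger in Sed 1 and in both exercised libraries, while a cluster led by Cd207 (65, 328, 313 and 48 cells) was the larger in Sed 2. Among neutrophil-like cells the cluster led by Retnlg held 1517 and 727 cells in the sedentary libraries against 60 and 30 in the exercised ones, where the cluster led by Ptgs2 was the larger with 423 and 279 cells. None of the 12 neutrophil markers was among the top 10 genes of that Ptgs2 cluster. Kupffer-like cells fell into a cluster with few UMIs (median 845) and one with many (median 9056), and the second held 80, 429, 18 and 22 cells.

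The genes lie on 6 chromosomes of the GRCm38 build in the GENCODE annotation, and values refer to UMIs over the whole gene. Arg1 (ENSMUSG00000019987) spans chr10:24915221-24927484 and Chil3 (ENSMUSG00000040809) spans chr3:106147554-106167564, both on the minus strand. The others are on the plus strand: Nos2 (ENSMUSG00000020826) at chr11:78920787-78960254, Acod1 (ENSMUSG00000022126) at chr14:103046977-103056573, Mrc1 (ENSMUSG00000026712) at chr2:14229392-14332057, Mgl2 (ENSMUSG00000040950) at chr11:70130329-70137550 and Il4ra (ENSMUSG00000030748) at chr7:125552120-125579474. Levels are given as CPM, the UMIs of the gene scaled to the total UMIs of the class in that library, and are compared between cells, not between genes.

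Each gene had its own distribution over the myeloid classes. The highest mean level over the 4 libraries was in macrophage-like cells for Arg1 (416 ± 360 CPM, SD, n = 4), Nos2 (28.9 ± 22.8) and Il4ra (145 ± 33.7). It was in neutrophil-like cells for Acod1 (1022 ± 595), in monocyte-like cells for Chil3 (6805 ± 6393), in Kupffer-like cells for Mrc1 (683 ± 143) and in type 2 conventional dendritic (cDC2-like) cells for Mgl2 (84.5 ± 56.8). For Acod1 and Mrc1 the lowest library of the first class was above the highest library of the second, which was the macrophage-like class for both. The other 5 genes had overlapping first and second classes. Within each library Arg1, Nos2 and Acod1 still stood higher in their first class than in their second in 4 of 4 libraries. Chil3 and Mgl2 did so in 3 of 4 and Il4ra in 2 of 4. In Ex 1 Chil3 was higher in neutrophil-like than in monocyte-like cells (2488 against 1710 CPM). Il4ra was present in all 8 classes, with class means from 53.9 CPM in cDC1-like to 145 CPM in macrophage-like cells and every neighbouring pair of classes overlapping.

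**Figure D1:**
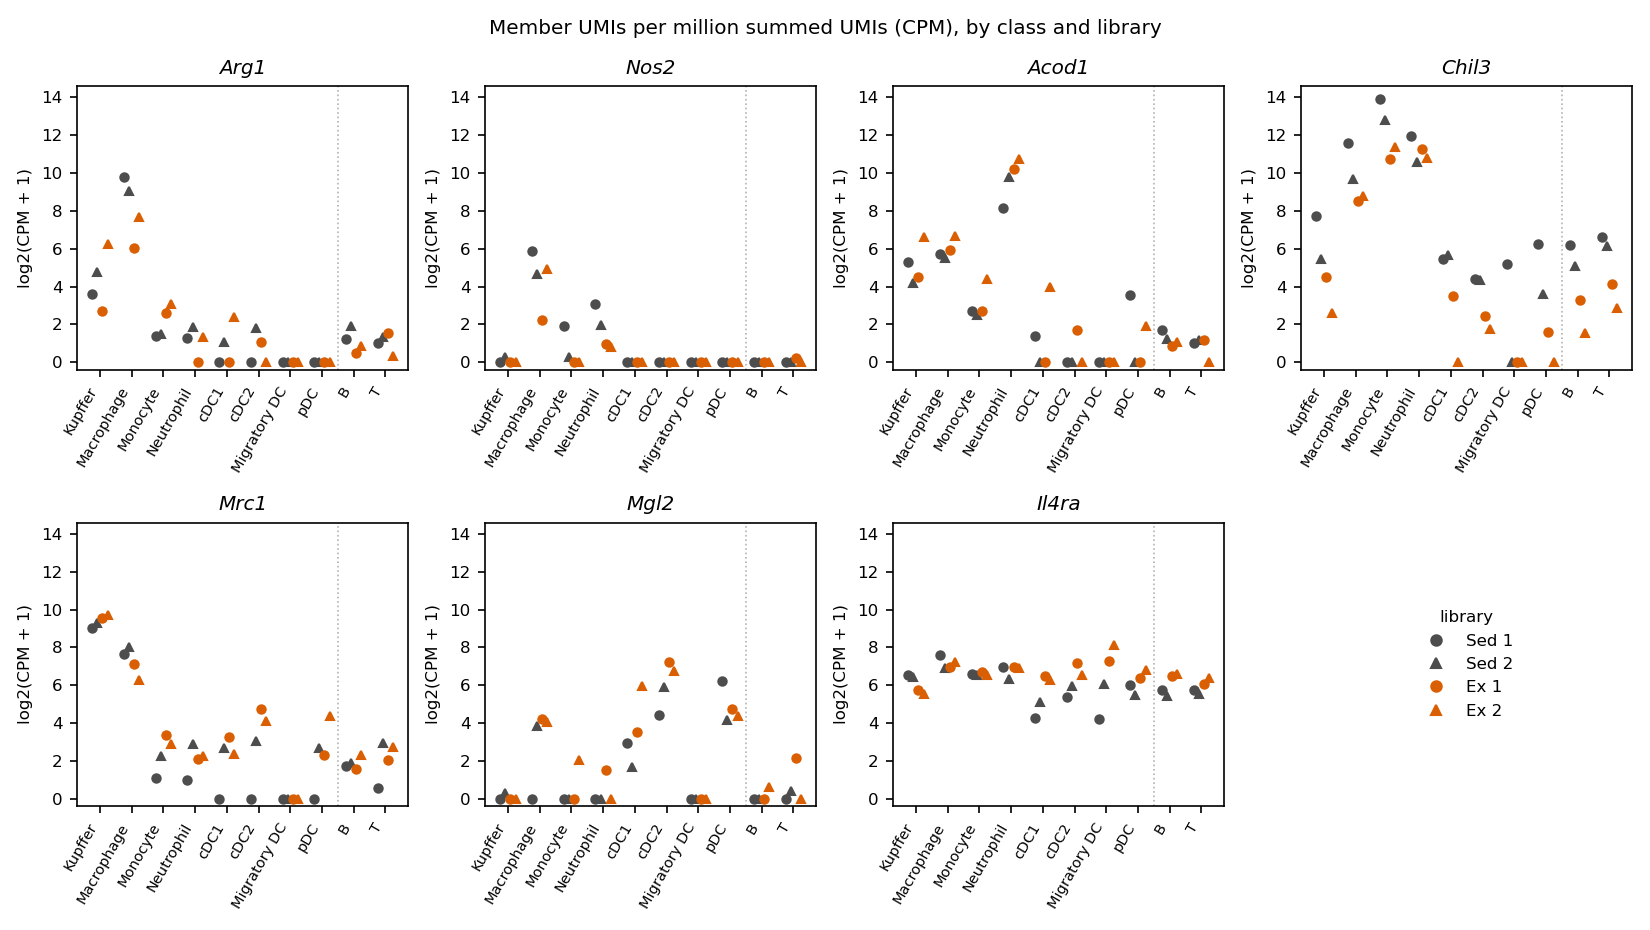
Level of each gene, as log2(CPM + 1), in 8 myeloid classes and in B and T cells; each point is 1 library, circles replicate 1 and triangles replicate 2, grey sedentary and orange exercised. By mean level Arg1 and Nos2 peak in macrophage-like cells, Acod1 in neutrophil-like cells, Chil3 in monocyte-like cells and Mrc1 in Kupffer-like cells. In Ex 1 Chil3 is higher in neutrophil-like cells. Chil3 also shows grey above orange points in B and T cells.

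Almost all Arg1 counts came from macrophage-like cells, which held 88.8% to 96.7% of the Arg1 UMIs of each library, and Acod1 counts came mostly from neutrophil-like cells, with 79.99% to 90.2%. Monocyte-like cells held 40.5% to 74.3% of Chil3 UMIs. Mrc1 had much of its signal outside the myeloid cells, which held 58.0%, 63.6%, 42.4% and 7.58% of its UMIs in Sed 1, Sed 2, Ex 1 and Ex 2. Ex 2 was also the library where the endothelial share of cells was highest. In endothelial cells Mrc1 stood at 1218, 1182, 1578 and 2139 CPM in Sed 1, Sed 2, Ex 1 and Ex 2.

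The sedentary and exercised libraries were compared in 5 myeloid classes that had enough cells in every library, with edgeR's quasi-likelihood test on summed UMIs, adjusted over all genes tested in the class. Of 23 pairs of a member and a class that passed the filter on low counts, none passed an adjusted p of 0.05, 9 had an unadjusted p under 0.05, and DESeq2 called 1 (Chil3 in monocyte-like cells, adjusted p = 0.00786). The edgeR test called few genes of any kind: 0.0% of genes in Kupffer-like cells (0 of 6640, 663 at unadjusted p under 0.05, and 17 called by DESeq2), 0.167% in macrophage-like cells, 2.88% in monocyte-like cells, 0.383% in neutrophil-like cells and 0.267% in cDC1-like cells. An unadjusted p under 0.05 was found for 1406 of 9606 genes in macrophage-like and 1892 of 10052 in monocyte-like cells. The counts were 1253 of 7576 in neutrophil-like and 638 of 5617 in cDC1-like cells. All 7 genes were tested in macrophage-like cells, 5 in Kupffer-like and 5 in monocyte-like cells, 4 in neutrophil-like cells and 2 in cDC1-like cells. cDC2-like, migratory dendritic and plasmacytoid dendritic (pDC-like) cells were too few to test.

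Summed over all myeloid cells, the 2 groups did not overlap for 5 of the 7 genes: Arg1 and Chil3 were lower in both exercised libraries, and Acod1, Mgl2 and Il4ra higher. Such separation was common, at 44.6% of all 12263 genes tested. Chil3 stood at 8973 and 3377 CPM in the sedentary libraries and 933 and 1175 CPM in the exercised ones, a log2 change of -2.70 (SE 0.55, adjusted p = 0.189). Mgl2 went from 0.572 and 4.35 to 18.6 and 16.8 CPM (log2 change 2.81, SE 0.76, adjusted p = 0.253), and Acod1 from 108 and 136 to 199.5 and 326 CPM (1.02, SE 0.25, adjusted p = 0.206). edgeR called 0.0% of genes in this sum (0 of 12263, with 1584 at unadjusted p under 0.05), none of the 7 passed while 3 had an unadjusted p under 0.05, and DESeq2 called 3 of the 7 among 405 genes. The sum also carries the makeup of the libraries, so that fewer cells of a type and less RNA per cell cannot be told apart in it.

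**Figure D2:**
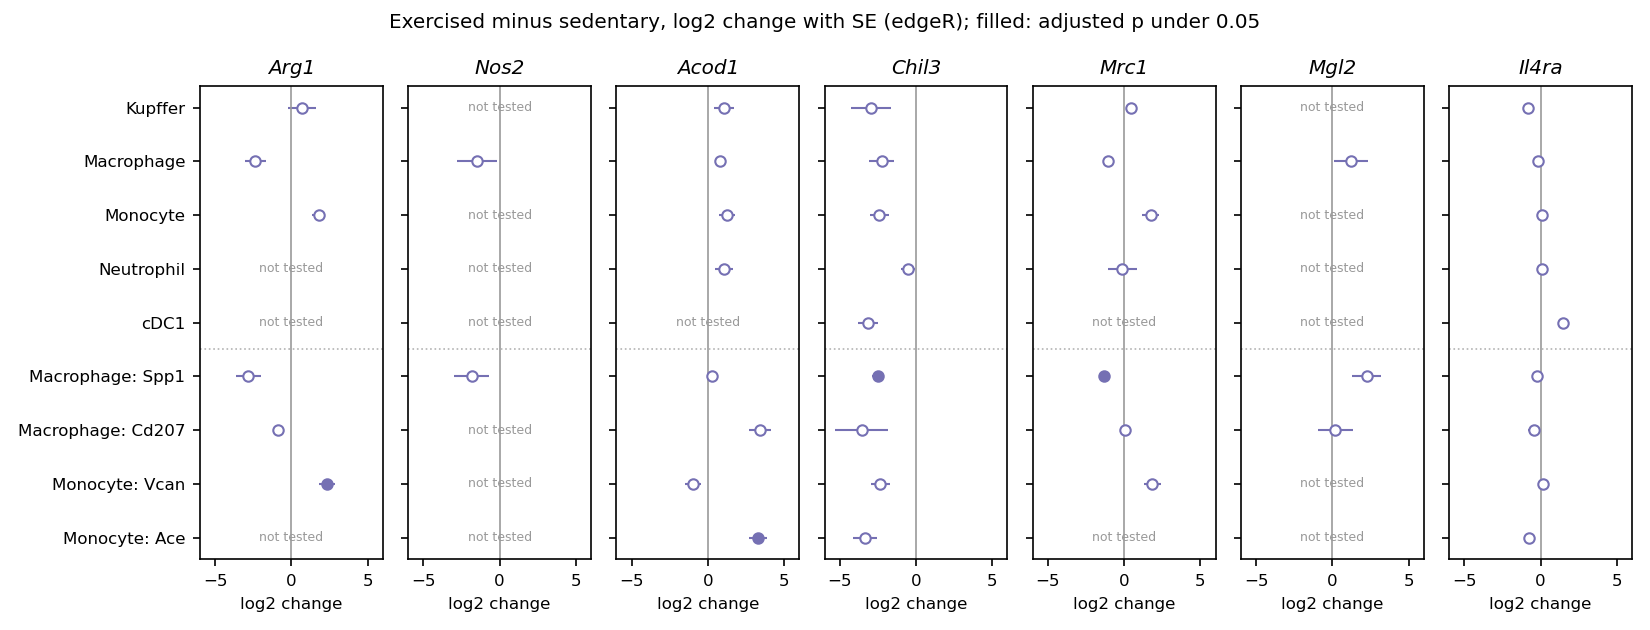
Log2 change, exercised minus sedentary, with its SE, for each gene in the 5 tested classes (above the dotted line) and in 4 single clusters (below it); filled points passed an adjusted p of 0.05 and "not tested" marks genes under the count filter. No point is filled above the line, and 4 are filled below it: Chil3 and Mrc1 in Spp1 macrophages, Arg1 in Vcan monocytes and Acod1 in Ace monocytes.

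Because the makeup of the classes differed between groups, 9 single clusters were also tested by themselves, a choice made after the class results were seen. Of 37 tested pairs of a member and a cluster, 4 passed the adjusted p and 14 had an unadjusted p under 0.05. Over all genes the unadjusted p was under 0.05 for 1630 of 8922 in Spp1 and 386 of 7035 in Cd207 macrophages. It was so for 1859 of 9898 in Vcan and 586 of 5072 in Ace monocytes. Among neutrophils the counts were 873 of 5017 in Camp, 340 of 5048 in Ptgs2 and 309 of 4894 in Retnlg cells. In Kupffer cells they were 395 of 3116 with few UMIs and 965 of 5650 with many. The background was 3.32% of genes called in Spp1 macrophages, 0.0284% in Cd207 macrophages, 2.8% in Vcan monocytes, 0.946% in Ace monocytes, 6.28% in Camp neutrophils, 0.0594% in Ptgs2 neutrophils, 0.0613% in Retnlg neutrophils, 0.16% in Kupffer cells with few UMIs and 0.0885% in those with many.

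In macrophages Arg1 was highest in the Spp1 cluster of the sedentary libraries. Its level there was 995 CPM in Sed 1 and 974 CPM in Sed 2, against 60.04 CPM in Ex 1 and 216 CPM in Ex 2. Both sedentary libraries were above both exercised ones, and the 2 exercised libraries differed from each other by more than the sedentary ones did. The log2 change was -2.83 (SE 0.80), but edgeR's adjusted p was 0.265. DESeq2 called Arg1 lower there, and edgeR did so when either exercised library was left out. The share of cells with Arg1 behaved alike: 125 of 221 and 96 of 178 cells had a UMI in Sed 1 and Sed 2, against 73 of 736 and 61 of 307 in Ex 1 and Ex 2. With every cell thinned to 1000 UMIs, which kept 1436 of the 1442 cells of this cluster, the shares were 30.8%, 33.5%, 3.81% and 10.5% (56.6%, 53.9%, 9.92% and 19.9% of all cells). Among cells with Arg1 the median was 8 UMIs in each sedentary library and 2 and 4 UMIs in Ex 1 and Ex 2, so a smaller share of cells had Arg1 and those that did had fewer UMIs. Free RNA set a low floor, since thinned B cells had Arg1 in at most 0.152% of cells (median depth 1706 to 2721 UMIs before thinning) and T cells in at most 0.459% (3006 to 4952 UMIs).

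In Cd207 macrophages Arg1 stood at 162, 116, 83.9 and 56.9 CPM in Sed 1, Sed 2, Ex 1 and Ex 2, again with both sedentary libraries above both exercised ones (log2 change -0.89, SE 0.32, adjusted p = 0.839). Over the whole macrophage-like class the levels were 869.7, 529.6, 64.5 and 201 CPM, and the log2 change of -2.37 (SE 0.68) did not pass (adjusted p = 0.282). Markers of other cells moved too in Spp1 macrophages. All 12 Kupffer markers were lower in the exercised group, with none at 0. They summed to 571 and 517 CPM in Sed 1 and Sed 2 against 209 and 280 CPM in Ex 1 and Ex 2. Hmox1 alone held 398, 288, 114 and 184 CPM of these sums in Sed 1, Sed 2, Ex 1 and Ex 2. Of 12 neutrophil markers, 10 were lower and none was at 0, summing to 2381 and 1489 against 350 and 351 CPM, while the 11 markers of hepatocytes, which also express Arg1, summed to 243 to 299 CPM in all 4 libraries with Hpd at 0. The part of these cells in the Arg1 levels was not tested.

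Outside macrophages Arg1 was sparse, and single cells weighed on its levels. In Kupffer-like cells Arg1 stood at 11.1, 26.1, 5.49 and 76.1 CPM, with a UMI in 40 sedentary and 3 exercised cells. All 15 Arg1 UMIs of Ex 2 came from 1 Kupffer-like cell, as did 79 of the 120 UMIs of Sed 2. In Vcan monocytes, the classical monocytes of the blood and tissue, Arg1 stood at 0.793 and 1.94 CPM in the sedentary libraries and 5.50 and 8.39 CPM in the exercised ones. It rose there by the test (log2 change 2.32, SE 0.51, adjusted p = 0.0438). That call rested on 7, 17, 18 and 16 UMIs in Sed 1, Sed 2, Ex 1 and Ex 2, and 1 cell of Ex 1 held 15 of its 18. It was lost without Ex 1 (adjusted p = 0.367) or without Ex 2 (0.419), and without scaling beyond the library total (0.0612). In the 7 exercised Vcan cells with Arg1 a median of 1.12% of UMIs fell on the 13 macrophage markers, against 0.166% in the 702 without. Over all Vcan monocytes these markers summed to 1589, 795, 2800 and 2187 CPM in Sed 1, Sed 2, Ex 1 and Ex 2. Of the 13 markers, 8 were higher and 5 lower in the exercised group, with none at 0. The part of macrophage RNA in the call was not tested.

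Nos2 shared its main place with Arg1 and was sparse everywhere else. In Spp1 macrophages it stood at 69.3 and 49.6 CPM in Sed 1 and Sed 2 and at 4.55 and 32.1 CPM in Ex 1 and Ex 2. The sedentary libraries were above the exercised ones, but Ex 2 lay closer to Sed 2 than to Ex 1, and the log2 change of -1.85 (SE 1.15) did not pass (adjusted p = 0.533). Cells with a Nos2 UMI numbered 39 of 221, 26 of 178, 16 of 736 and 21 of 307. In Cd207 macrophages the 4 libraries together held 1 Nos2 UMI. Ptgs2 neutrophils had 25.0, 9.90, 1.90 and 1.24 CPM from 13, 7, 2 and 1 UMIs, lower in both exercised libraries and below the filter for a test. Nos2 had no UMI in any library of cDC1-like, cDC2-like, pDC-like or B cells, where 3 UMIs, the limit that a count of 0 allows, would give 0.834 CPM in the B cells of Ex 2 and 60.4 CPM in the 7 cDC2-like cells of Sed 1. Arg2, the mitochondrial arginase, lay in neutrophil-like cells at 212, 351, 292 and 253 CPM in Sed 1, Sed 2, Ex 1 and Ex 2, with overlapping groups (log2 change -0.26, adjusted p = 0.718), and was at 8.11 to 26.2 CPM in Spp1 macrophages.

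**Figure D3:**
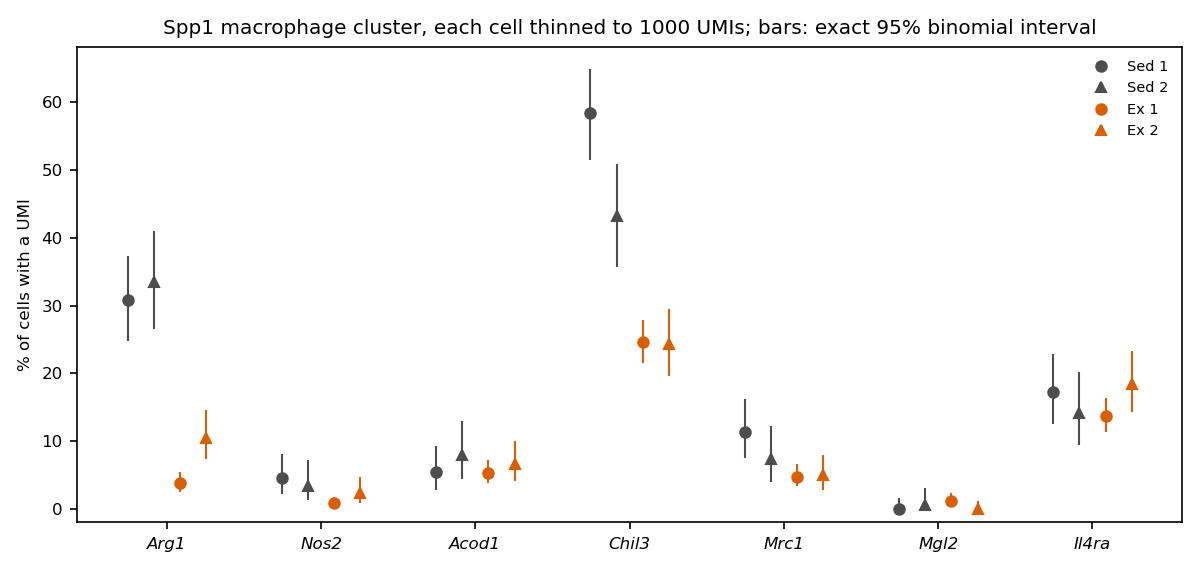
Percent of Spp1 macrophages with at least 1 UMI of each gene after thinning every cell to 1000 UMIs; points are libraries (circles replicate 1, triangles replicate 2, grey sedentary, orange exercised) and bars are exact 95% binomial intervals, which cover counting error only. For Arg1 the sedentary libraries sit at 30.8% and 33.5% and the exercised ones at 3.81% and 10.5%; for Acod1 and Il4ra the groups overlap.

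Acod1 was a neutrophil gene in these livers, and its level followed the neutrophil clusters. In Ptgs2 neutrophils it stood at 1211, 2145, 2263 and 2638 CPM in Sed 1, Sed 2, Ex 1 and Ex 2, and 57.3%, 75.2%, 68.0% and 75.6% of thinned cells had a UMI (66.4%, 80.6%, 83.5% and 88.5% of all cells, at median depths of 1631 to 2284 UMIs). In Retnlg neutrophils it was lower, at 342, 693, 851 and 1075 CPM. In Camp neutrophils, a cluster led by granule genes of immature cells, it was lowest, at 22.7, 104, 36.8 and 29.2 CPM. The order Ptgs2, Retnlg, Camp held in each of the 4 libraries. Background was low, with Acod1 in at most 0.476% of thinned B or T cells.

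Between groups, Acod1 in neutrophil-like cells was 287 and 895 CPM in Sed 1 and Sed 2 against 1193 and 1713 CPM in Ex 1 and Ex 2. Both exercised libraries were above both sedentary ones, but Sed 1 and Sed 2 differed by more than Sed 2 and Ex 1, and the log2 change of 1.04 (SE 0.60) did not pass (adjusted p = 0.478). Inside single clusters the change was 0.53 (SE 0.37, adjusted p = 0.900) in Ptgs2 neutrophils, 0.82 (SE 0.36, adjusted p = 0.719) in Retnlg neutrophils and -0.75 (SE 0.96, adjusted p = 0.789) in Camp neutrophils. The share of neutrophil-like cells in the Ptgs2 cluster differed as well, 286 of 2231 and 372 of 1247 cells in the sedentary against 423 of 577 and 279 of 359 cells in the exercised libraries. Without scaling beyond the library total, the median change of all genes moved from 0.02 to 0.24 on the log2 scale in neutrophil-like and from -0.01 to 0.145 in cDC1-like cells.

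**Figure D4:**
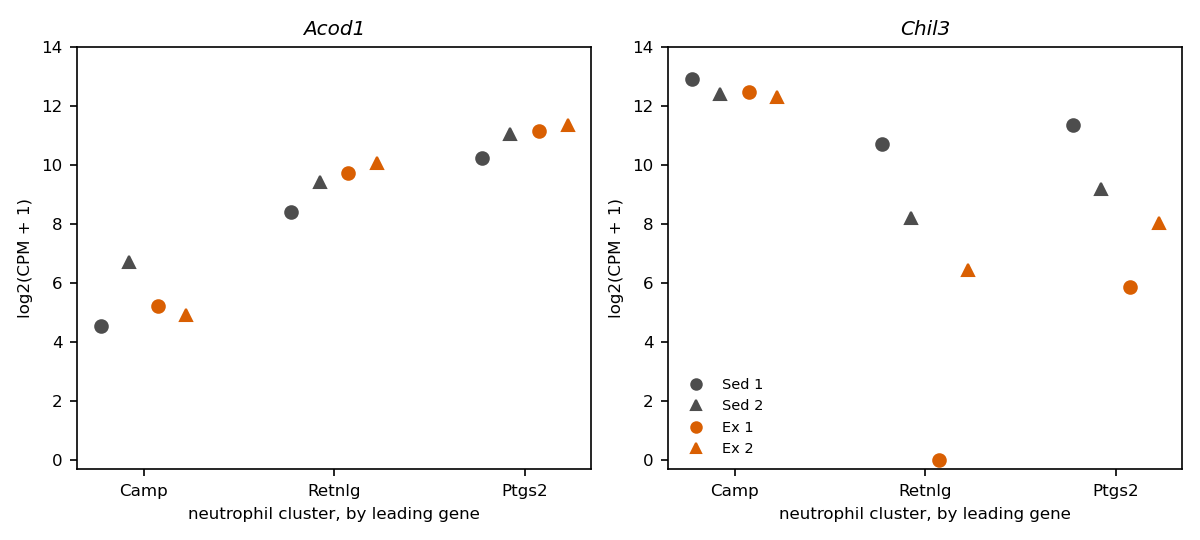
Acod1 (left) and Chil3 (right) in the 3 neutrophil clusters, as log2(CPM + 1); each point is 1 library, grey sedentary and orange exercised, circles replicate 1 and triangles replicate 2. Acod1 is highest and Chil3 lower in the Ptgs2 cluster than in Camp neutrophils, where Chil3 lies between 5081 and 7798 CPM in every library.

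Macrophages and monocytes had less Acod1. In Spp1 macrophages it stood at 60.1, 89.9, 68.8 and 106 CPM, with overlapping groups (log2 change 0.25, SE 0.26, adjusted p = 0.649). In Cd207 macrophages it was 0 and 3.12 CPM in Sed 1 and Sed 2 against 22.2 and 39.2 CPM in Ex 1 and Ex 2, from 0, 5, 28 and 11 UMIs, a log2 change of 3.42 (SE 0.74) that did not pass (adjusted p = 0.427). The change in the Spp1 cluster minus that in the Cd207 cluster was -3.41 (SE 0.58, adjusted p = 0.0111, edgeR with library as a block), where 0.624% of genes were called, and -8.15 (adjusted p = 0.0436) without Sed 2, which leaves the sedentary Cd207 cells at 0 UMIs. Monocyte-like cells had 5.46, 4.72, 5.56 and 20.1 CPM (log2 change 1.26, SE 0.55, adjusted p = 0.281), and their 2 clusters differed in direction. Vcan monocytes, 2972 of the 3326 cells, had 4.76 and 4.80 CPM in Sed 1 and Sed 2 against 1.22 and 4.19 CPM in Ex 1 and Ex 2, lower in both exercised libraries (-0.95, SE 0.53, adjusted p = 0.373). In Ace monocytes, the patrolling kind, Acod1 stood at 12.3 and 3.52 CPM in Sed 1 and Sed 2 against 50.0 and 129 CPM in Ex 1 and Ex 2 and rose by the test (log2 change 3.31, SE 0.59, adjusted p = 0.0295). The exercised counts came from 16 UMIs in 3 cells and 36 UMIs in 4 cells. These 7 cells had a median of 3.64% of their UMIs in the 12 neutrophil markers, against 0.0175% in the 114 exercised Ace cells without Acod1. Over the cluster those markers summed to 6440 and 588 CPM in Sed 1 and Sed 2 against 3143 and 4191 CPM in Ex 1 and Ex 2, with 8 of 12 higher in the exercised group and none at 0. The call was lost without Ex 2 (log2 change 2.52, adjusted p = 0.0768), and the part of neutrophil RNA in it was not tested.

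Chil3, a secreted chitinase-like lectin also called Ym1, was lower in the exercised libraries in monocytes and macrophages. Monocyte-like cells had 15690 and 7202 CPM in Sed 1 and Sed 2 and 1710 and 2617 CPM in Ex 1 and Ex 2. The lowest sedentary library was above the highest exercised one, but the sedentary libraries also differed from each other, and the log2 change of -2.41 (SE 0.60) did not pass in edgeR (adjusted p = 0.225). With cells thinned to 1000 UMIs, 94.9% and 91.7% of sedentary and 56.2% and 58.2% of exercised monocyte-like cells had a Chil3 UMI (96.8%, 94.4%, 74.4% and 76.4% of all cells). Classical Vcan and patrolling Ace monocytes moved the same way. Ace monocytes had 9968 and 3945 CPM in Sed 1 and Sed 2 against 453 and 917 CPM in Ex 1 and Ex 2, and their change minus that of Vcan monocytes was -1.05 (SE 0.14, adjusted p = 0.00114). In that comparison 0.326% of genes were called, and without Ex 2 the adjusted p was 0.0577.

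In Spp1 macrophages Chil3 stood at 3631 and 1687 CPM in Sed 1 and Sed 2 and at 453 and 483 CPM in Ex 1 and Ex 2. The exercised libraries lay close together and below both sedentary ones, and Chil3 fell by the test (log2 change -2.47, SE 0.39, adjusted p = 0.0469). The adjusted p was 0.346 without Ex 1, 0.463 without Ex 2 and 0.0703 without scaling beyond the library total. The neutrophil markers given beside Arg1, from cells that also carry Chil3, were lower in the same cells, and of 9 tested 5 fell and 1 rose. Their part in the Chil3 call was not tested. Cd207 macrophages had far less Chil3, at 211, 23.1, 11.1 and 0 CPM, where 3 UMIs would be 10.7 CPM in Ex 2.

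Chil3 UMIs in B and T cells, which should lack the gene, were also lower in the exercised libraries. B cells had 71.0, 32.5, 8.61 and 1.95 CPM, and T cells 96.7, 69.7, 16.8 and 6.29 CPM in Sed 1, Sed 2, Ex 1 and Ex 2. Single cells weigh on these levels: in Sed 1, Sed 2, Ex 1 and Ex 2 the T cell with the most Chil3 held 220, 68, 23 and 15 UMIs out of 388, 227, 107 and 23, and 1 B cell held 9 UMIs out of 22 in Ex 1. The shares of cells, on which a single cell has little weight, were lower too. The thinned shares with a UMI were 6.17%, 3.96%, 0.607% and 0.341% of B cells and 4.34%, 3.69%, 0.734% and 0.326% of T cells (12.9%, 5.78%, 1.19% and 0.594% of all B cells and 18.7%, 7.61%, 2.44% and 1.14% of all T cells). cDC1-like cells had Chil3 at 42.7, 49.9, 10.5 and 0 CPM (log2 change -3.15, SE 0.65, adjusted p = 0.0935), and 1 cell held 26 of the 46 UMIs of Sed 2 and another all 6 of Ex 1. Kupffer-like cells had 211, 42.4, 22.0 and 5.07 CPM from 228, 195, 8 and 1 UMIs (log2 change -2.94, SE 1.31, adjusted p = 0.550). They were above the B cell level in each library, but below the T cell level in Sed 2 and Ex 2. Monocyte-like cells stood far above B and T cells in all 4 libraries, and the part of free RNA in the lower levels was not tested.

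Neutrophils split by cluster for Chil3. Camp neutrophils had 7798 and 5425 CPM in Sed 1 and Sed 2 against 5707 and 5081 CPM in Ex 1 and Ex 2, with overlapping groups (log2 change -0.34, SE 0.25, adjusted p = 0.533). Retnlg neutrophils had 1670 and 298 CPM against 0 and 85.5 CPM (-4.98, SE 1.77, adjusted p = 0.801), with 17.9 CPM as the level of 3 UMIs in Ex 1, and Ptgs2 neutrophils 2621 and 583 against 57.1 and 260 CPM (-3.32, SE 0.99, adjusted p = 0.682). Sed 1 was the highest library in all 3 clusters. In 2 clusters left unnamed, one led by the progenitor genes Elane and Mpo and one by the platelet genes Ppbp and Gp9, Chil3 was 5222, 5283, 551 and 1140 CPM and 10570, 4696, 702 and 924 CPM.

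Chil3 has a close paralog on the same chromosome, Chil4, and shared sequence could move reads between them. Of 441 windows of 60 bases in the last 500 bases of the Chil3 transcript, 67 (15.2%) also occur in Chil4. Chil4 was nearly silent: its only UMIs in the 8 myeloid classes gave 0.309 CPM in the monocyte-like cells of Sed 1. The upstream windows of both genes are printed because the genes are so alike there and yet only Chil3 was detected at these levels. They are RefSeq sequences of the minus strand of GRCm38.p6, 5′ to 3′, at chr3:106167565-106167814 for Chil3, which ends at the base before the annotated start, and at chr3:106219508-106219729 for Chil4, which stops short of the RefSeq start at the outermost exon base in GENCODE. The capitals mark the match to TTCNNNGAA, one of the letter patterns bound by Stat factors, searched on both strands.
Chil3: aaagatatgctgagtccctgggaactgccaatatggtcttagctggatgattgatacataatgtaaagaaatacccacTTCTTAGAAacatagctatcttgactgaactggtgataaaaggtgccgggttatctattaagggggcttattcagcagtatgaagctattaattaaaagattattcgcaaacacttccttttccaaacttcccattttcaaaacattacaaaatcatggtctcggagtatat
Chil4: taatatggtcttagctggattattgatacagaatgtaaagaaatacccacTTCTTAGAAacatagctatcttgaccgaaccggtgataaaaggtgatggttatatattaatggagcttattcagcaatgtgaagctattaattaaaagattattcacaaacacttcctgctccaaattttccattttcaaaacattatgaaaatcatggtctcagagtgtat
Aligned over the full 250 bases before each RefSeq start with free ends, the windows were 90.1% identical in 223 columns. Both hold the marked TTCTTAGAA, at 172 to 164 bases before the RefSeq start of Chil3 and 200 to 192 before that of Chil4. TTCNNNGAA occurred in the 250 bases upstream of 7.02% of 32851 promoters and of 1 of the 5 members matched in the promoter table, Chil3. The wider pattern that Stat6 prefers, TTC and GAA with 4 bases of any kind between them, occurred in 5.85% of promoters and in none of the 5 members. The promoters of Arg1 and Nos2 had no matched entry and were not read. A match is a description of the letters only.

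Mrc1, the mannose receptor, marked resident macrophages. Kupffer-like cells had 514 and 634 CPM in Sed 1 and Sed 2 and 739 and 847 CPM in Ex 1 and Ex 2, with both exercised libraries higher (log2 change 0.47, SE 0.29, adjusted p = 0.595). Among thinned Kupffer-like cells 32.3%, 44.7%, 45.3% and 58.7% had a UMI, and in all cells, where depth differed, 49.6%, 64.9%, 44.4% and 59.5%. Thinning kept 164 of 278, 615 of 897, 95 of 250 and 46 of 84 of these cells. The 10 endothelial markers, from cells that also express Mrc1, summed to 433 and 548 CPM in sedentary and 676 and 730 CPM in exercised Kupffer-like cells, with 4 of 10 higher, 6 of 10 lower and none at 0, and their part was not tested. In Cd207 macrophages Mrc1 was 391, 380, 436 and 352 CPM, with overlapping groups (log2 change 0.06, SE 0.26, adjusted p = 0.990).

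In Spp1 macrophages, by contrast, Mrc1 was 169 and 129 CPM in Sed 1 and Sed 2 against 66.8 and 47.5 CPM in Ex 1 and Ex 2. The groups did not overlap, and Mrc1 fell by the test (log2 change -1.33, SE 0.23, adjusted p = 0.00816), a call lost without Ex 2 (-1.09, adjusted p = 0.151). Shares of thinned cells were 11.3%, 7.39%, 4.76% and 4.93%, with 80 of 221, 53 of 178, 148 of 736 and 54 of 307 of all cells. The Kupffer markers, lower in the same cells, are given above beside Arg1, and their part was not tested. The change in Spp1 macrophages was below that in Cd207 macrophages (difference -1.37, SE 0.28, adjusted p = 0.0368, lost without Sed 1 at 0.0808 and without Ex 2 at 0.140) and below that in Kupffer cells with many UMIs (difference -1.85, SE 0.34, adjusted p = 0.00204, and 0.0539 without Ex 2, with 1.9% of genes called). Monocyte-like cells held little Mrc1, 1.13 and 3.76 CPM in Sed 1 and Sed 2 against 9.18 and 6.40 CPM in Ex 1 and Ex 2 (log2 change 1.73, SE 0.54, adjusted p = 0.129).

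Changes in 4 classes were also set against those in Kupffer-like cells, as differences of 2 log2 changes with library as a block. Of the members, 3 passed, against a background of 1.71% of genes for macrophage-like, 0.439% for monocyte-like, 0.237% for neutrophil-like and 0.586% for cDC1-like cells. Arg1 differed in macrophage-like cells by -2.92 (SE 0.54, adjusted p = 0.000146), where the Kupffer side rests on the single Ex 2 cell named above. Without Ex 2 the difference was -1.47 (adjusted p = 0.888), without Ex 1 it was -3.39 (0.462), and between Spp1 macrophages and Kupffer cells with many UMIs it was -0.49 (SE 2.32, adjusted p = 0.971). Mrc1 differed in macrophage-like cells by -1.52 (SE 0.34, adjusted p = 0.00254), with adjusted p-values of 0.0647 to 0.375 when any 1 library was left out.

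Il4ra, the receptor chain shared by interleukin 4 and interleukin 13, gave the third such difference. In cDC1-like cells, the cross-presenting dendritic cells, it stood at 18.1 and 33.7 CPM in Sed 1 and Sed 2 against 88.8 and 75.1 CPM in Ex 1 and Ex 2 (log2 change 1.47, SE 0.33, adjusted p = 0.120). In Kupffer-like cells it went the other way, 92.5 and 86.6 against 52.2 and 45.6 CPM (-0.83, SE 0.31, adjusted p = 0.454). Neither pair of groups overlapped, and the difference of the changes was 2.32 (SE 0.46, adjusted p = 0.00730), lost without Ex 1 (0.319) or Ex 2 (0.0521). In endothelial cells Il4ra moved as in Kupffer-like cells, from 384 and 394 CPM in Sed 1 and Sed 2 to 105 and 121 CPM in Ex 1 and Ex 2. The part of endothelial RNA in the Kupffer-like levels was not tested. Il4ra was seen in 9 of 63, 27 of 129, 22 of 61 and 13 of 32 cDC1-like cells, from 11, 31, 51 and 36 UMIs. After thinning the shares were 1.64%, 1.68%, 8.93% and 6.25%, against 5.49%, 4.41%, 8.29% and 9.37% of B cells in the same libraries. Of 10 cDC2 markers, 9 were higher in the exercised cDC1-like cells, summing to 297 and 484 against 759 and 755 CPM with none at 0, and their part was not tested. All 8 B cell markers were higher too, summing to 80.5, 96.6, 108 and 684 CPM. B cells had 53.6 and 42.2 CPM of Il4ra in Sed 1 and Sed 2 against 87.2 and 94.3 CPM in Ex 1 and Ex 2. Il4ra was also higher in both exercised libraries in the dendritic classes with too few cells to test. It went from 40.3 and 61.05 to 141 and 90.6 CPM in cDC2-like cells. Migratory dendritic cells had 17.5 and 64.9 against 154.7 and 280 CPM, and pDC-like cells 64.3 and 44.2 against 83.2 and 109 CPM. T cells (53.1 and 45.7 against 66.9 and 83.4 CPM) and natural killer and innate lymphoid cells (38.0 and 42.5 against 51.9 and 75.8 CPM) moved the same way.

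In the other 3 tested classes the groups overlapped for Il4ra. Monocyte-like cells had 95.8, 91.5, 103 and 91.9 CPM (log2 change 0.08, SE 0.16, adjusted p = 0.841), and neutrophil-like cells 124, 78.7, 125 and 121 CPM (0.07, SE 0.24, adjusted p = 0.919). In macrophage-like cells it was 192, 118, 124 and 147 CPM (-0.15, SE 0.26, adjusted p = 0.826). Stat6, the factor that acts below the receptor, lay at 62.1, 74.0, 62.3 and 68.7 CPM in macrophage-like and 70.5, 87.3, 78.4 and 90.5 CPM in monocyte-like cells, with overlapping groups (log2 changes of -0.02 and 0.12, adjusted p-values of 0.975 and 0.761). Retnla, a common readout of interleukin 4 in mice, had almost no UMIs, with 1.62 CPM in Sed 2 macrophage-like cells and 0 in the other 3 libraries of that class.

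Mgl2, a galactose-binding lectin, had its highest mean level in cDC2-like cells, but they did not hold most of its UMIs. Of the 132, 352 and 168 Mgl2 UMIs of Sed 2, Ex 1 and Ex 2, cDC2-like cells held 37.1%, 38.9% and 27.4% and macrophage-like cells 31.1%, 33.8% and 26.2%, while Sed 1 had 17 UMIs in all. cDC2-like cells had 20.2 and 59.8 CPM in Sed 1 and Sed 2 against 151 and 107 CPM in Ex 1 and Ex 2, but Sed 1 held only 7 such cells, and no test was made. With all cells counted, 1 of 7, 12 of 117, 13 of 113 and 8 of 45 cDC2-like cells had a UMI. A small unnamed cluster with Mgl2, Cd209a and Clec10a among its leading genes had 0, 76.5, 197 and 79.0 CPM. In macrophage-like cells the levels were 0, 13.3, 17.6 and 15.3 CPM (log2 change 1.22, SE 1.09, adjusted p = 0.664), with Sed 1 alone standing apart. In Kupffer-like cells Mgl2 had 1 UMI in the 4 libraries together. Clec10a, its neighbouring paralog, shared 0 of 441 windows of 60 bases with the end of the Mgl2 transcript. Clec10a stood at 654, 238, 230 and 238 CPM in pDC-like cells and at 60.4, 133, 276 and 128 CPM in cDC2-like cells. In Vcan monocytes Clec10a rose by the test, from 9.86 and 16.5 to 26.3 and 35.1 CPM (log2 change 1.23, SE 0.27, adjusted p = 0.0430).

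Co-detection was read in cells thinned to 1000 UMIs, as the number of cells with both genes beside the number that the product of the 2 shares gives. Both members of a pair share each cell's depth and library, so these numbers are a description. In the 1436 thinned Spp1 macrophages Arg1 and Nos2 were together in 10 cells against 6.05 from the product, and with all 1442 cells unthinned in 62 against 41.8, above the product in each of the 4 libraries (ratios of 1.27 to 2.64). Of the 102 cells with Nos2, 62 also had Arg1. Thinned to 1000 UMIs, the counts were too small to read by library, and 1 library or more had no cell with both. With 1404 cells thinned to 2000 UMIs, 34 cells had both against 18.4 from the product, with library ratios of 1.54 to 4.39. Arg1 and Mrc1 were together in 23 thinned cells against 14.96, with library ratios of 0.0 to 1.82, and over all thinned macrophage-like cells they lay below the product (27 against 32.5). Arg1 and Il4ra were together in 42 against 29.8, with library ratios of 0.780 to 1.70. Mrc1 and Il4ra were together in 21 against 13.7, with library ratios of 1.04 to 2.17. Arg1 and Chil3 paired at the product, 79 cells against 79.9.

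Chil3 and Mrc1 were together less often than the product gives. In macrophage-like cells 24 thinned cells had both against 63.5 from the product, a ratio of 0.378 that lay between 0.159 and 0.543 in the single libraries. In each library the Chil3 level was higher in Spp1 and the Mrc1 level higher in Cd207 macrophages. Cells with an Mrc1 UMI were still more numerous in the Spp1 than in the Cd207 cluster in 3 of 4 libraries: 80 against 29 in Sed 1, 148 against 142 in Ex 1 and 54 against 23 in Ex 2, but 53 against 185 in Sed 2. Within Spp1 macrophages alone it was 21 against 32.5, with library ratios of 0.348 to 0.891 and so under 1 in each library. With all cells unthinned the ratios were 0.658 in the class and 0.769 in the Spp1 cluster.

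**Figure D5:**
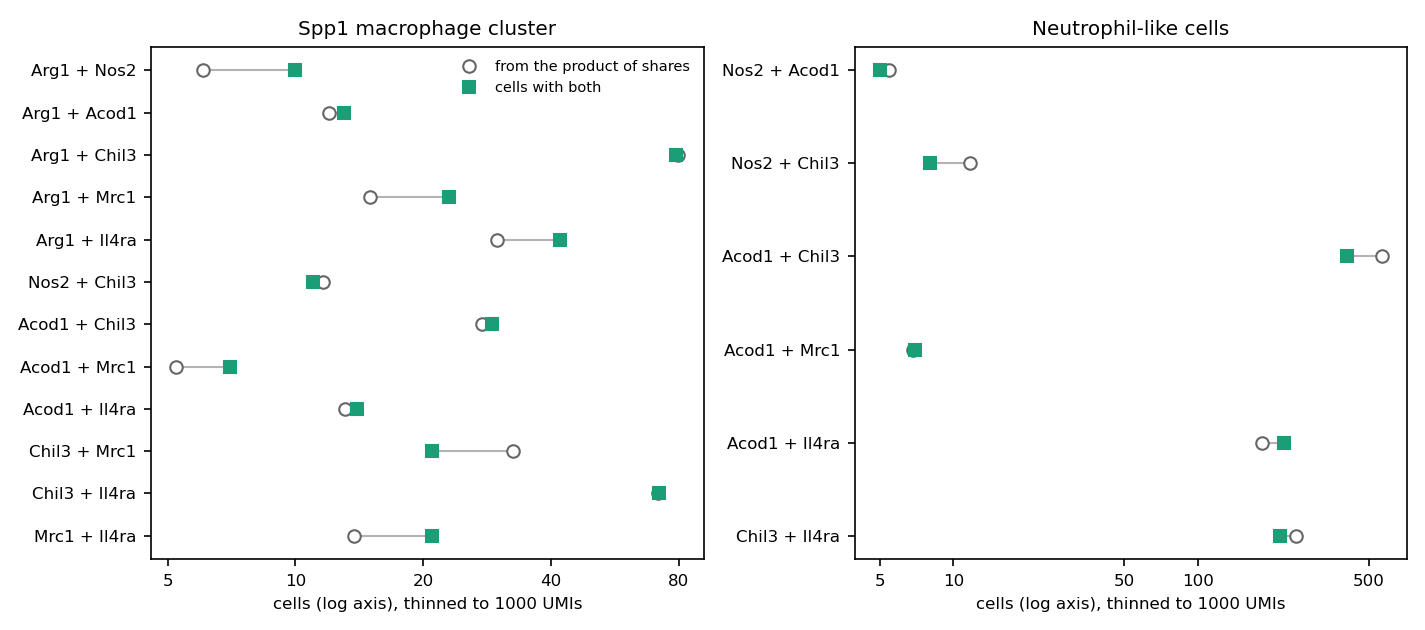
Cells with both genes of a pair (squares) beside the number from the product of the 2 shares (open circles), in Spp1 macrophages and in neutrophil-like cells, thinned to 1000 UMIs, on log axes; pairs whose product gave 5 or more cells are shown. Summed over the 4 libraries, Arg1 pairs with Nos2, Mrc1 and Il4ra in Spp1 macrophages lie above the product, and Chil3 with Mrc1 lies below it (21 against 32.5).

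In neutrophil-like cells Acod1 and Chil3 were together in 407 thinned cells against 564 from the product (ratio 0.722, from 0.0475 to 0.899 in the single libraries). Inside the clusters the ratio was 0.923 in Ptgs2, 0.915 in Retnlg and 0.748 in Camp neutrophils, the last from 13 cells with both. Acod1 and Il4ra were together in 225 cells against 183, with library ratios of 1.19 to 1.25. Inside Ptgs2 neutrophils that ratio was 1.09 and inside Retnlg neutrophils 0.981.

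The other genes of these pathways were described in 7 lists of 119 genes in all. In macrophage-like cells 93 were tested, 1 rose and 1 fell, with a median log2 change of 0.07 against -0.01 over all genes tested. Over all genes, 5 of 9606 rose and 11 fell. Of the 93, 31 had an unadjusted p under 0.05, as did 1406 of all 9606 genes, and DESeq2 called 11, against 157 of all genes. The lists differed in their medians, from -2.27 for 2 tested chitinase-like and resistin-like genes to 0.53 for 24 of classical activation. Of these 24, 11 had an unadjusted p under 0.05 and DESeq2 called 6. Ccl24, an eosinophil-attracting chemokine on the list of alternative activation that Kupffer cells also express, fell from 112 and 100.2 to 22.3 and 19.2 CPM (log2 change -2.30, SE 0.21, adjusted p = 0.00940). The Kupffer markers were lower in the Spp1 cluster of this class (571 and 517 against 209 and 280 CPM, 2 of 6 tested fell). Hmox1 held the larger part of these sums and was among those that fell. These markers were not summed over the whole class, and Ccl24 was not among the genes called in the Spp1 or the Cd207 cluster. The part of Kupffer RNA in the Ccl24 level was not tested. Gbp2, an interferon-induced guanylate-binding protein on the classical list, rose from 123 and 141 to 439 and 741 CPM (2.20, SE 0.27, adjusted p = 0.0355). In Kupffer-like cells 75 list genes were tested and none passed in edgeR or DESeq2 (6 at unadjusted p under 0.05, as were 663 of all 6640 genes). In cDC1-like cells none of 57 passed in either (18 at unadjusted p under 0.05, as were 638 of all 5617 genes).

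Spp1 macrophages, where Chil3 and Mrc1 fell, had 3 of 89 tested list genes that rose and 8 that fell, at a median of -0.02, where 112 of all 8922 genes rose and 184 fell, at a median of 0.00. On the list of classical activation, 2 of 24 rose and 1 fell. Gbp2 rose from 138 and 191 to 506 and 813 CPM (log2 change 2.04, adjusted p = 0.00123) and Gbp5, of the same family, from 40.1 and 72.4 to 122 and 145 CPM (1.29, adjusted p = 0.0193). Cd38, an enzyme that consumes NAD, fell from 222 and 192 to 70.4 and 84.6 CPM (-1.39, adjusted p = 0.00184). On the list of alternative activation, 2 of 17 fell, the scavenger receptors Stab1 (-0.96, adjusted p = 0.0355) and Msr1 (-0.90, adjusted p = 0.0266), and none rose. Of 9 lectins, 3 fell: Clec4n from 232 and 316 to 71.7 and 89.3 CPM (-1.74, adjusted p = 0.000621), Clec4d from 247 and 170.3 to 58.2 and 75.0 CPM (-1.62, adjusted p = 0.00162), and Clec4e from 221 and 329 to 108 and 162 CPM (adjusted p = 0.0469). On the interleukin 4 and 13 list Il2rg, the common cytokine receptor chain, rose (0.97, adjusted p = 0.0222) and Irs2, an adaptor below the receptor, fell (-1.27, adjusted p = 0.0247). Hmox1, which degrades haem and is a target of itaconate signalling, fell (-1.18, adjusted p = 0.0266). Hmox1 is also among the Kupffer markers and held the larger part of their sum in these cells. None of 15 tested genes of arginine and polyamine handling passed, at a median of -0.34. DESeq2 called 0, and 5 had an unadjusted p under 0.05, as did 1630 of all 8922 genes.

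Il1b and Tnf, cytokines of classical activation, did not pass in any of the 5 classes or in either macrophage cluster. In Spp1 macrophages Il1b stood at 674, 2043, 878 and 1396 CPM (log2 change -0.22, SE 0.74, adjusted p = 0.920) and Tnf at 78.0, 242, 65.7 and 123 CPM (-0.74, SE 0.77, adjusted p = 0.70). Replicate 2 was the higher library within each group for both genes.

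Monocyte-like cells had 7 of 88 tested list genes that rose and 4 that fell, at a median of 0.11, where 171 of all 10052 genes rose and 118 fell, at a median of -0.01. Cd209a, a lectin of dendritic cells on 2 of the lists, rose from 0 and 0.215 to 6.40 and 11.4 CPM (adjusted p = 0.00573), and Cxcl9, an interferon-induced chemokine, from 0.103 and 0.107 to 5.01 and 4.11 CPM (adjusted p = 0.00747). Cd38 fell from 178 and 92.4 to 24.5 and 25.1 CPM (log2 change -2.44, adjusted p = 0.0481), as it did in Spp1 macrophages. The 12 neutrophil markers summed to 14300 and 6192 CPM in sedentary and 778 and 2004 CPM in exercised monocyte-like cells. Of them 10 were lower and none was at 0, and the groups did not overlap for 5. Of 11 tested, 0 fell and 1 rose, and their part in the Chil3 levels was not tested. In neutrophil-like cells 3 of 78 list genes rose and 1 fell, at a median of 0.17, where 8 of all 7576 genes rose and 21 fell, at a median of 0.02. Cxcl10 rose from 18.4 and 35.0 to 371 and 293 CPM (3.46, SE 0.38, adjusted p = 0.0177), Gbp5 and Cxcl9 rose as well (3.13 and 4.07, adjusted p-values of 0.00326 and 0.0221), and Retnlg, a resistin-like protein, fell from 32600 and 29210 to 8596 and 9616 CPM (-1.98, adjusted p = 0.0221). Retnlg names the cluster that was smaller in the exercised libraries. On the classical list edgeR called 0 of 21 tested genes as higher in Ptgs2, 0 of 15 in Retnlg and 0 of 12 in Camp neutrophils. Over all genes 0 of 5048, 1 of 4894 and 189 of 5017 rose in these clusters. An unadjusted p under 0.05, in either direction, was found for 10, 2 and 2 of the classical genes. The part of the cluster sizes in the 3 rises was not tested.

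Genes with the profile most like each member were ranked by Pearson's r over 20 sums, 5 classes in 4 libraries, which share depth and clustering. Arg1 was most like Ccl12 (r = 0.900), Sdc4 and Flrt2, and Acod1 was most like Ell2 (0.931), Pnrc1 and Maff. For Chil3 they were Hp (0.930), Tmem38b and Fes, and for Mrc1 Rgl1 (0.980), Itga9 and C1qc. For Nos2 the third was Spp1 (0.846), after 1700017B05Rik (0.870) and Tmem119. Il4ra was most like Arl11 (0.871), Phf23 and Eno1, and Mgl2 was most like Lef1 (0.860), Gpr34 and Cd8b1.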

How the data were processed

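Droplet 3′ single-cell RNA was measured in 4 libraries. The deposited matrix holds UMI counts made by the authors with Cell Ranger (7.0.0 per the submitters' processing notes, 6.1.1 per the file headers), builds mm10 and GRCm38. Of its 51140 columns, 28525 had a barcode and 22615 were not used. Each barcode's suffix gave its library, by line of the deposited aggregation table; breaks in expression lay 8, 1 and 35 cells from the ends this gives. Cells needed 200 or more genes and no more than 10% mitochondrial UMIs, and 422, 462, 293 and 144 cells with the highest doublet scores were removed, at a set rate of 0.8% per 1000 cells, since the automatic threshold marked 0.02% to 4.46%. scanpy 1.11.5 clustered 2000 variable genes without the members (30 components, 15 neighbours, resolution 1). UMIs were summed per class and library (30 or more cells in every library, 15 for single clusters) and tested with edgeR 4.0.16 (filterByExpr, TMM scaling, quasi-likelihood, Benjamini-Hochberg, threshold 0.05), with DESeq2 1.42.0 as an alternative. The code was tested on simulated data. Named genes are the 7 members, up to 4 list genes per list and class past the threshold, 7 genes picked for every class and 3 like genes per member. The members and lists were chosen with earlier results of these data known. Intervals cover counting error only.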

Additional observations from a re-analysis of the deposited data

Results flagged for a closer look

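For 8 results, the change between the groups in one kind of cell differed from the change in another by a test of the difference itself (edgeR, with library as a block). The values are differences of log2 changes. Against Kupffer-like cells they were -2.92 for Arg1 and -1.52 for Mrc1 in macrophage-like cells and 2.32 for Il4ra in cDC1-like cells. In Spp1 macrophages Mrc1 differed by -1.85 from Kupffer cells with many UMIs and by -1.37 from Cd207 macrophages, and Acod1 differed by -3.41 from Cd207 macrophages. In Ace monocytes Chil3 differed by -1.05 and Acod1 by 4.21 (adjusted p = 0.00819, and 0.372 without Ex 2) from Vcan monocytes. The 5 differences between single clusters were chosen after the data were seen. Leaving out each library in turn kept the call for Acod1 between Spp1 and Cd207 macrophages, whose Cd207 side rests on 28 or fewer UMIs per library, and lost it at least once for the other 7.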

How the results depend on the processing

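The count of member and class pairs called was 0 and stayed 0 without scaling beyond the total and with the members among the clustering genes. It was 1 with DESeq2, 7 without the low-count filter, 3 at resolution 0.5, 2 at resolution 2, 2 with doublets kept and 2 with 500 genes and 5% mitochondrial UMIs. Leaving out 1 library gave 0 to 12, where the lone library is assumed to vary like the others. Over all myeloid cells the count was 0, with 3 by DESeq2, 5 without the filter and 0 to 4 on leaving out 1 library. The 3 differences of changes became 0 to 4, and the 4 single-cluster calls became 7 with DESeq2, 9 without the filter, 2 without scaling and 2 to 12 on leaving out 1 library.

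With the replicate block the class pairs called were 5 and the single-cluster calls 6, while none was called over all myeloid cells. The labels do not pair libraries of the same number, and their deviations correlated at -0.066 to 0.158.

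Single changes in a class or over all myeloid cells were followed over the settings only where the reported edgeR adjusted p was 0.2824 or less. Of these 12 changes, 1 reversed: Acod1 in monocyte-like cells, 1.26, was -0.83 with the members among the clustering genes. The ratio for Chil3 with Mrc1 in macrophage-like cells, 0.378, was 0.107 when detection needed 2 UMIs and 0.687 with doublets kept. In percentage points, exercised minus sedentary, Arg1 in macrophage-like cells was -15.3 and -25.0 with doublets kept, Mrc1 in Kupffer-like cells 13.5 and 0.673 with doublets kept, and Chil3 in monocyte-like cells -36.1, with -27.0 on thinning to 2000 UMIs and -49.5 when detection needed 2 UMIs. The causes were not tested. Of the settings tried for these 12 single changes, 108 kept direction and side of the threshold and 40 passed it where the reported fit had not. Changes of Acod1, Chil3 and Mgl2 over all myeloid cells are among the 12, and member changes with a higher adjusted p were not counted. Single-cluster calls were kept in 24 and lost in 8, and differences of changes kept in 19 and lost in 13.

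Over all genes the calls were 0 in Kupffer-like, 16 in macrophage-like, 289 in monocyte-like, 29 in neutrophil-like and 15 in cDC1-like cells and 296 in Spp1 macrophages. Without the filter they were 96, 667, 702, 552, 196 and 785, and on leaving out 1 library 0 to 184, 19 to 726, 0 to 1530, 0 to 926, 0 to 412 and 78 to 1194. DESeq2 gave 17, 157, 342, 124, 20 and 212, and neutrophil-like cells had 314 without scaling.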
